A study of Ramazzottius varieornatus and Hypsibius exemplaris with 16 samples.

Results

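The giant coding targets of the tardigrade Ramazzottius varieornatus are the transcript models whose listed coding length is 9000 bases or more. Membership was set by the listed length and by no expression value, and there were 55 of them among 14532 targets (0.378%), from 52 genes as judged by the identifiers. Their RNA was measured in 5 libraries of storage cells and in 3 libraries of active whole animals, all from strain YOKOZUNA-1, which was kept on agar and fed Chlorella vulgaris. Storage cells were freed by cutting animals open in dilute PBS and were lysed at once in SMART-Seq v.4 buffer, whereas whole animals were homogenised in TRIzol and their RNA was purified on columns before the same amplification. The route from animal to RNA therefore changed together with the sample type, and the contribution of each cannot be told apart. The labels give neither the number of animals or cells behind a library nor a sequencing batch, and apart from calling the samples biological replicates they do not say what separated them, so p-values measure the spread between these libraries. Counting depth ran from 8228370 to 11174369 estimated counts in storage cell libraries and from 5404555 to 5601269 in whole-body libraries.

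Storage cells are free-floating cells of the tardigrade body cavity that hold reserves such as lipid and glycogen and take part in feeding the growing eggs. Very long coding sequences in animals generally belong to large structural, adhesive and transport proteins, for instance the elastic giants of muscle, the heavy chains of dynein motors, the matrix proteins of basement membranes and the receptors and carriers of lipoproteins. A whole animal contains muscle, nerve, epidermis, gut and gonad beside the storage cells, so its RNA averages over all of these. None of the identifiers could be matched to a gene name (0 matches), so no product, position or sequence is given for any giant and the storage cell label could not be checked against marker genes.

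The giants ran from 9006 to 58851 bases with a median of 11427, against a median of 1080 over all targets. All but 7 of them were present at 1 TPM or more in each whole-body library, where TPM is the deposited relative abundance per effective length, so that levels of targets of different length can be compared. In whole animals the median level of giants lay between 15.8 and 17.0 TPM in the 3 libraries, beside 14.9 to 16.0 TPM for shorter targets. The medians include targets below 1 TPM, which were more frequent among shorter ones. At least 1 TPM in every whole-body library was reached by 87.3% of giants and 72.8% of all targets. In storage cells their median lay between 0.285 and 0.615 TPM in the 5 libraries, beside 1.21 to 4.38 TPM for shorter targets. At the effective length of a typical giant, 1 TPM stood for 120 to 208 estimated counts in a storage cell library, and 3 counts for 0.0144 to 0.0249 TPM. A giant with no count in such a library may thus have been present below that level, and counting depth does not set the 1 TPM threshold used here.

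Summed over all giants, storage cell replicates 1 to 5 held 390, 147, 408, 96.3 and 171 TPM, against 3710, 4340 and 3843 TPM in whole-body replicates 1 to 3. Every storage cell library lay below every whole-body library. A single giant, g786.t1, supplied 67.7% to 70.0% of the whole-body sum and 0.181% to 67.0% of the storage cell sum. Without it the sums were 195, 147, 134, 96.1 and 69.3 TPM in storage cells and 1164, 1300.5 and 1243 TPM in whole bodies, so the sum of the remaining giants also stood lower in every storage cell library. In bulk RNA of this kind, fewer cells that express a gene and less of its RNA per cell cannot be told apart.

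**Figure D1:**
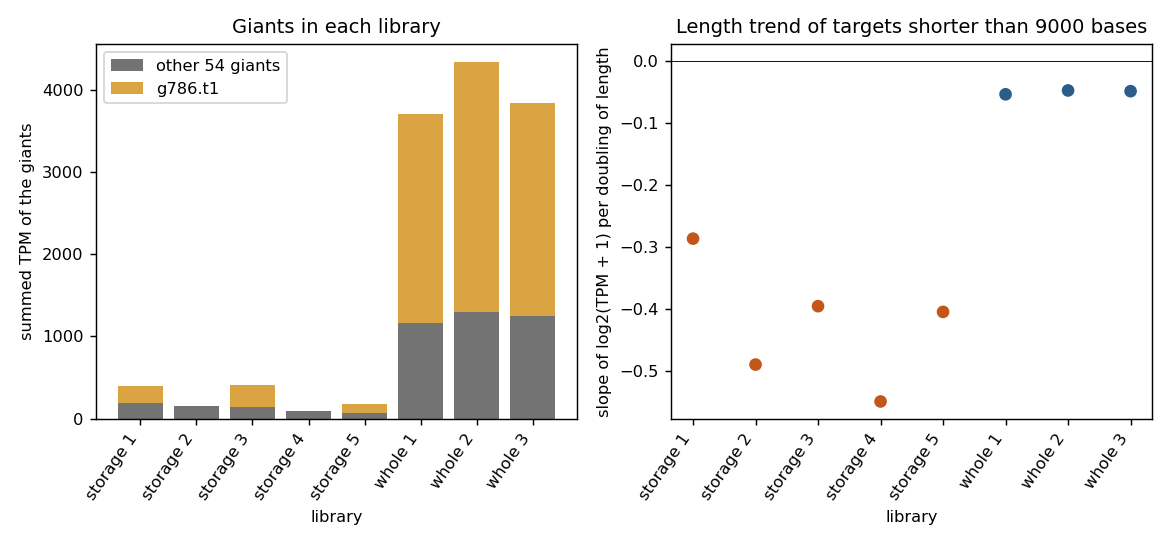
Left, summed TPM of the 55 giants in each library, with g786.t1 stacked on the other 54; the sums ranged from 96.3 to 408 TPM in storage cell libraries and from 3710 to 4340 TPM in whole-body libraries. Right, the slope of log2(TPM + 1) per doubling of coding length over targets shorter than 9000 bases; all 5 storage cell points lie between -0.55 and -0.29, below the 3 whole-body points near -0.05.

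All 55 giants passed the filter on low counts and were tested with all other targets of the species. Storage cells had less RNA of 36 giants and more of none, and 19 giants did not pass the threshold (edgeR quasi-likelihood test, Benjamini-Hochberg adjusted p below 0.05 over 10483 targets). Over all targets tested, 16.6% were called lower and 13.6% higher, so the 65.5% of giants called lower is far above the background share. No giant was higher at an unadjusted p below 0.05 either. DESeq2 called 0 giants higher and 44 lower, where it called 16.3% of all targets higher and 25.9% lower. Voom with sample quality weights called 0 giants higher and 51 lower (21.1% and 41.2% of all targets), and limma on log2(TPM + 1) 0 higher and 53 lower (5.65% and 40.4%). The log2 fold changes, storage cells over whole bodies on the scale of TMM-normalized counts, ran from -10.85 to 0.03 with a median of -3.51. Of the 55, 54 were negative, and the median over all targets tested was -0.14. Percentages of a whole-body mean given below are in TPM, a different scale, so they need not match these fold changes. The count was smaller with only a pair of whole-body libraries: 23 giants were lower without whole-body replicate 1 (7.27% of all targets lower, 3.48% higher), 22 without replicate 2 (7.82% lower, 3.78% higher) and 22 without replicate 3 (7.45% lower, 3.76% higher). With a storage cell library left out it was 33 to 39, against 15.4% to 24.5% of all targets lower and 10.4% to 17.2% higher. The 39 came without storage cell replicate 2, where the share of all targets called lower was also at its highest. The same 22 giants were called lower with all libraries and in each of the 8 fits with 1 library left out. The matching count over all targets is not given here. The 5 storage cell TPM values of 53 giants all lay below the 3 whole-body values, which held for 41.8% of all targets tested, and no giant had all storage cell values above all whole-body values (7.16% of all targets). On TMM-scaled CPM, 51 giants lay below and 0 above, against 31.0% and 18.5% of all targets tested.

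**Figure D2:**
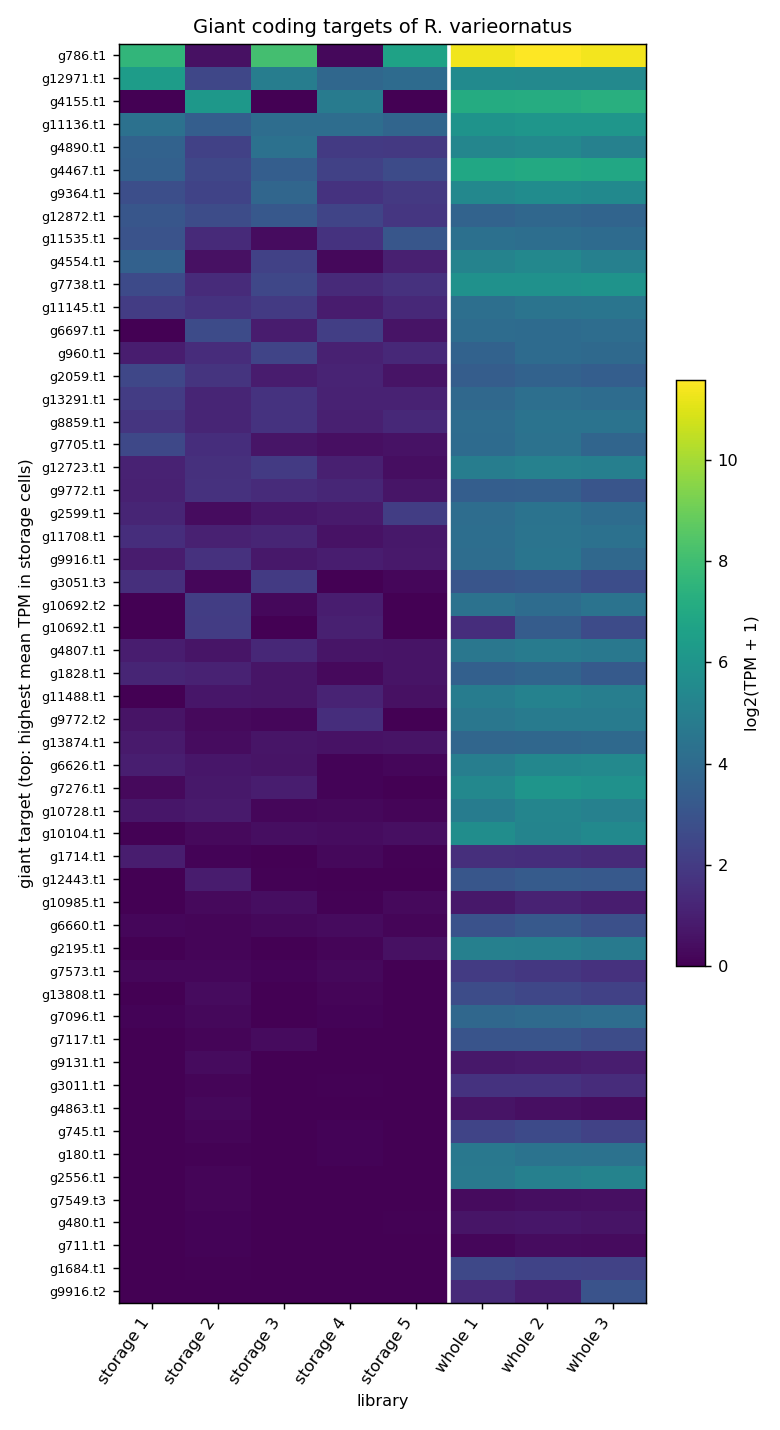
log2(TPM + 1) of each of the 55 giants (rows, ordered by mean TPM in storage cells) in the 5 storage cell libraries (left of the white line) and the 3 whole-body libraries (right of it). Columns on the right are alike, whereas columns on the left differ from each other, and the lowest 25 rows, none with 1 TPM in any storage cell library, reach a mean of 54.3 TPM in whole bodies.

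Few giants stayed expressed in all storage cell libraries. At a threshold of 1 TPM, 9 giants were present in each of the 5 storage cell libraries, 5 in 4 of them, 4 in 3, 7 in 2, 5 in 1 and 25 in none. Of the 48 giants present in all 3 whole-body libraries, these 9 were 18.8%, compared with 42.2% of the targets from 6000 to below 9000 bases (43 of 102) and 59.3% of all targets (6280 of 10586) counted the same way. The number depended on the threshold: 15 giants had at least 0.5 TPM in each storage cell library, 6 had at least 2 TPM and 1 had at least 5 TPM, and 27 had at least 10 estimated counts in each. The individual storage cell libraries held 21, 23, 18, 19 and 15 giants at 1 TPM or more in replicates 1 to 5, against 49 in each whole-body library. Giants with no count numbered 19, 1, 13, 7 and 11 in those storage cell libraries and 0 in every whole-body library. Storage cell replicate 2 thus held at least a trace of all but 1 giant.

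The 9 giants of that kind were g12971.t1, g11136.t1, g4890.t1, g4467.t1, g9364.t1, g12872.t1, g7738.t1, g13291.t1 and g8859.t1. Among them 6 were called lower and 3 were not called.

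Target g12971.t1 (12141 bases) came closest to its whole-body level. It had 83.3, 4.58, 29.0, 13.3 and 15.8 TPM in storage cell replicates 1 to 5, against 45.1, 42.3 and 43.0 TPM in whole bodies. The groups overlapped, because replicate 1 lay above all whole-body libraries and the other 4 below them. Its log2 fold change was 0.03 (SE 0.72, edgeR adjusted p = 0.983), and the sign of a value this close to 0 turned under most other settings, to -0.22 with RLE size factors and to -0.56 without storage cell replicate 1.

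Target g12872.t1 (10017 bases) kept 44.2% of its whole-body mean in TPM, with 7.43, 5.45, 8.18, 4.19 and 2.57 TPM in storage cells against 11.8, 13.6 and 12.4 TPM in whole bodies. All storage cell values were below all whole-body values in TPM. By edgeR it was not called (log2 fold change -0.46, SE 0.28; adjusted p = 0.243), and DESeq2 called it lower with -0.71 (adjusted p = 0.0442).

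The steadiest of the abundant giants in storage cells was g11136.t1 (9012 bases), with 19.2, 9.93, 16.4, 16.4 and 12.5 TPM in replicates 1 to 5 against 60.0, 67.0 and 66.5 TPM in whole bodies. It was the giant with at least 5 TPM in every storage cell library. Its log2 fold change was -1.34 (SE 0.33, edgeR adjusted p = 0.0193), which missed the threshold without whole-body replicate 1, 2 or 3 (adjusted p of 0.0641, 0.0717 and 0.0749). Its counts were not whole numbers in 7 of 8 libraries, so some of its reads also matched other targets, which makes its level uncertain.

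Target g4890.t1 (10038 bases) had 11.4, 3.68, 18.8, 2.91 and 2.80 TPM in storage cells and 38.8, 42.8 and 33.5 TPM in whole bodies. Storage cell replicates 1 and 3 were the high ones, and the groups did not overlap. It was not called by edgeR (log2 fold change -1.67, SE 0.60, adjusted p = 0.066), but was called without storage cell replicate 3, at -2.35 (adjusted p = 0.01). RLE size factors in edgeR (adjusted p = 0.0431), DESeq2 (adjusted p = 0.0111), voom with sample quality weights (adjusted p = 0.00203) and limma on log2(TPM + 1) (adjusted p = 0.0118) also called it lower. In edgeR with upper-quartile factors, without a filter or at 10 CPM or more it was not called (adjusted p of 0.0898, 0.0644 and 0.0616).

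The same 2 storage cell libraries were also highest for g9364.t1 (13260 bases), which had 5.91, 3.99, 13.0, 2.28 and 2.83 TPM in storage cells against 40.7, 48.3 and 43.8 TPM in whole bodies. It was called lower by edgeR (log2 fold change -2.30, SE 0.51; adjusted p = 0.0128), and missed the threshold without whole-body replicate 2 or 3 (adjusted p of 0.0526 and 0.0513). Without storage cell replicate 3 the log2 fold change was -2.90.

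A pair of giants fell to about 5% of a high whole-body level and yet stayed above 1 TPM in each storage cell library. Target g4467.t1 (10326 bases) had 10.6, 4.56, 10.1, 3.77 and 5.29 TPM in storage cells, against 117, 131 and 122 TPM in whole bodies (log2 fold change -3.51, SE 0.38, edgeR adjusted p = 0.00188). Target g7738.t1 (10251 bases) had 5.00, 1.72, 4.44, 1.58 and 2.17 TPM in storage cells, against 55.9, 56.2 and 61.2 TPM in whole bodies (log2 fold change -3.62, SE 0.39, edgeR adjusted p = 0.00185). The mean storage cell level was 5.58% of the whole-body mean for g4467.t1 and 5.16% for g7738.t1, close to the median of 5.62% over all giants.

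**Figure D3:**
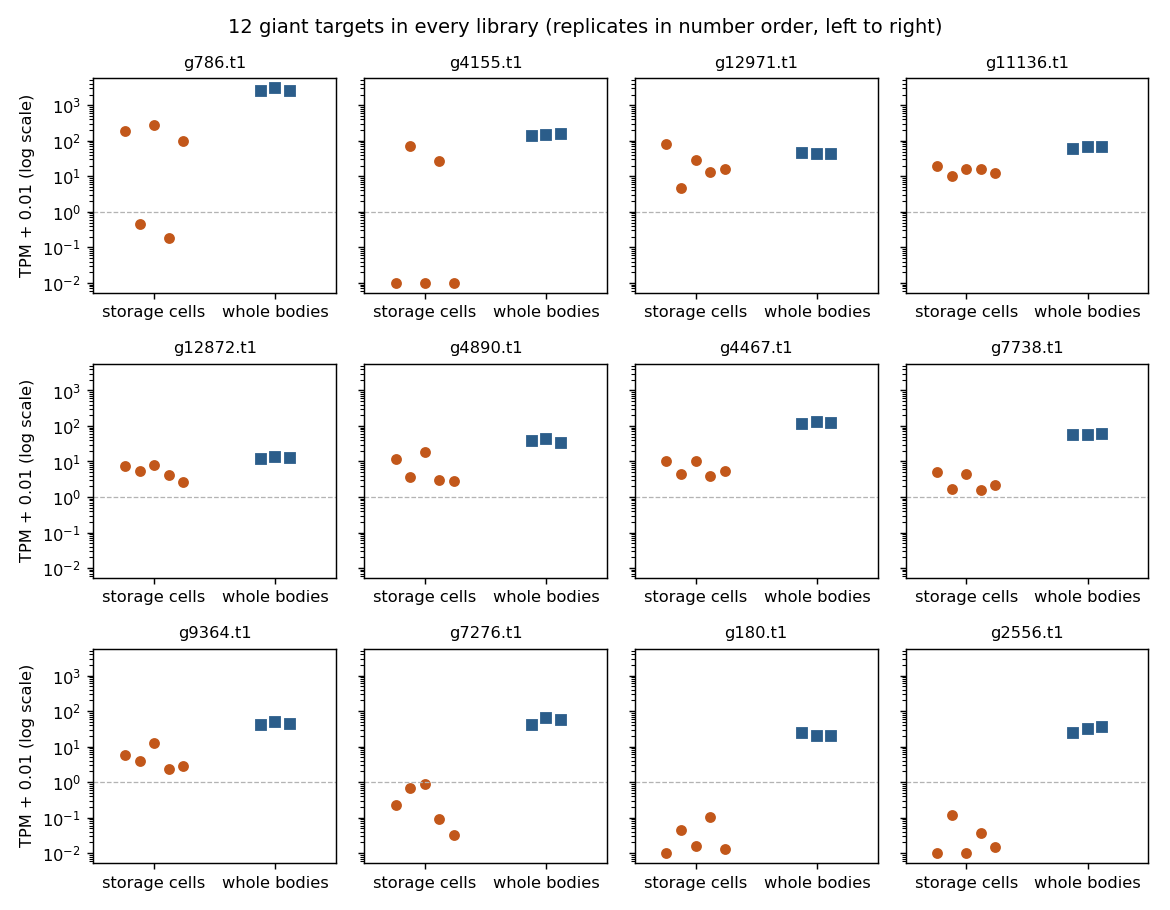
TPM + 0.01 on a log scale for 12 giants in the 5 storage cell libraries (circles, left) and the 3 whole-body libraries (squares, right), in order of replicate number; the dashed line marks 1 TPM. Circles of g786.t1 and g4155.t1 fall into a high and a low set, those of g11136.t1 and g12872.t1 lie close together, and those of g180.t1 and g2556.t1 lie near the bottom.

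The most abundant giant of both sample types was present in some storage cell libraries and nearly absent from others. Target g786.t1 (9702 bases) had 195, 0.447, 274, 0.174 and 102 TPM in storage cell replicates 1 to 5, against 2545, 3039 and 2600 TPM in whole bodies. Replicates 1, 3 and 5 thus held at least 102 TPM and replicates 2 and 4 less than 1 TPM, and all 5 lay below the whole bodies. Its log2 fold change was -3.94 (SE 1.87), and it was not called (edgeR adjusted p = 0.146). DESeq2 gave -4.19 (adjusted p = 0.0217) and voom with sample quality weights -5.78 (adjusted p = 0.00667).

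Target g4155.t1 (12078 bases) had the opposite pattern. It had no count in storage cell replicates 1, 3 and 5 and 71.8 and 27.2 TPM in replicates 2 and 4, from 13810 and 5845 counts, against 138, 142 and 158 TPM in whole bodies. The groups did not overlap in TPM. The log2 fold change of -2.14 (SE 2.61) was not called (edgeR adjusted p = 0.572), while voom with sample quality weights gave -11.08 (adjusted p = 0.00127).

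At 1 TPM, 3 giants were present in replicates 2 and 4 alone: g4155.t1, g6697.t1 and g10692.t1. Giants present in replicates 1, 3 and 5 alone were 2 in number, g786.t1 and g4554.t1. Of the 48 giants with 1 TPM in all whole bodies these were 6.25% and 4.17%, against 3.44% and 0.256% of the 10538 shorter targets counted the same way. Several other patterns also had 2 giants each: replicates 1 and 2 alone, replicate 2 alone, replicate 4 alone and all but replicate 5. Target g6697.t1 (9171 bases) had 0, 5.27, 0.829, 3.47 and 0.522 TPM in storage cells against 16.0, 15.3 and 16.5 TPM in whole bodies, and was not called (log2 fold change -2.16, SE 1.33, edgeR adjusted p = 0.253). Target g4554.t1 (12450 bases) had 11.2, 0.432, 3.69, 0.184 and 1.02 TPM in storage cells against 35.4, 41.1 and 32.3 TPM in whole bodies, reached the threshold in replicate 5 by a narrow margin, and was not called either (log2 fold change -2.97, SE 1.04, edgeR adjusted p = 0.0634). These names were picked after their values were seen, and the labels give nothing that sets replicates 2 and 4 apart from the others.

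At the other end, 25 giants did not reach 1 TPM in any storage cell library, although 18 of them did so in every whole-body library and 9 averaged 10 TPM or more there. These 18 were 37.5% of the 48 giants with 1 TPM in all whole bodies. Of 10538 shorter targets counted the same way, 12.1% reached 1 TPM in no storage cell library. Of the 25, picked by their low storage cell values, 17 were called lower, where 65.5% of all giants and 16.6% of all targets tested were.

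Target g7276.t1 (14052 bases) was the most abundant of these in whole bodies. It had 0.222, 0.685, 0.887, 0.0799 and 0.0220 TPM in storage cells against 41.7, 63.9 and 57.2 TPM in whole bodies (log2 fold change -6.50, SE 1.04, edgeR adjusted p = 0.00535). The storage cell mean was 0.699% of the whole-body mean, and no storage cell library came near the whole bodies. Without storage cell replicate 3 the log2 fold change was -7.18.

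The largest drops that passed the threshold went to almost no counts. Target g2556.t1 (12258 bases) had 0, 21, 0, 6 and 1 counts in storage cell replicates 1 to 5 against 1629, 2098 and 2438 counts in the shallower whole-body libraries, which is 0.0277 ± 0.0454 TPM in storage cells (SD, n = 5) and 30.5 ± 5.47 TPM in whole bodies (SD, n = 3; log2 fold change -9.32, SE 1.39, edgeR adjusted p = 0.00451). Target g180.t1 (22221 bases) had 0, 13, 2, 38 and 1 counts in storage cells, and in TPM it averaged 0.0278 ± 0.0399 there (SD, n = 5) and 21.2 ± 2.29 in whole bodies (SD, n = 3; log2 fold change -8.63, SE 1.47, edgeR adjusted p = 0.00629). For both, the few storage cell counts came mostly from replicates 2 and 4. The log2 fold change was -10.67 for g2556.t1 without replicate 2 and -10.20 for g180.t1 without replicate 4.

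Targets g1684.t1 and g7096.t1 were also among the 5 largest drops. Target g1684.t1 (9627 bases) had 10 counts over the 5 storage cell libraries and 663 over the 3 whole-body libraries (log2 fold change -7.53, SE 1.12, edgeR adjusted p = 0.00451). Target g7096.t1 (12870 bases) had 70 counts in storage cells and averaged 0.0721 ± 0.0742 TPM there (SD, n = 5), while whole bodies averaged 14.9 ± 1.69 TPM (SD, n = 3; log2 fold change -7.00, SE 1.13, edgeR adjusted p = 0.00544). Without storage cell replicate 2 the log2 fold change was -8.61 for g1684.t1 and -7.60 for g7096.t1.

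Isoforms limited a few values. For 3 genes both listed isoforms were giants, and 10 giants in all had non-whole counts (further than 1e-06 from a whole number) in at least 1 library, because reads were divided among targets. Target g9916.t2 (9777 bases) was given no count in storage cells and had 1.64, 0.923 and 6.81 TPM in whole bodies. With reads divided as listed and 3 counts for all storage cell libraries together, it was at least 447-fold lower there (edgeR adjusted p = 0.0105). Most of the whole-body counts came from replicate 3, and without that library the bound was 178-fold and the fitted log2 fold change -9.57 in place of -10.85. Its partner g9916.t1 (9693 bases) took all reads of the gene in storage cells, with 0.833, 2.13, 0.679, 0.917 and 0.720 TPM, against 16.4, 21.5 and 14.2 TPM in whole bodies. Summed over both isoforms, g9916 averaged 1.06 ± 0.607 TPM in storage cells (SD, n = 5) and 20.5 ± 2.25 TPM in whole bodies (SD, n = 3), and was lower by edgeR at a log2 fold change of -3.49 (SE 0.40; adjusted p = 0.00204).

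The isoforms of g9772 were divided differently in the sample types. Target g9772.t1 (21954 bases) had 1.06, 2.15, 1.66, 1.37 and 0.574 TPM in storage cells against 9.97, 10.2 and 7.26 TPM in whole bodies. Target g9772.t2 (21972 bases) had 0.507, 0.234, 0.146, 1.84 and 0.00339 TPM in storage cells against 22.7, 26.8 and 27.0 TPM in whole bodies. The t1 form was thus the higher in storage cell replicates 1, 2, 3 and 5 and the lower in replicate 4 and in all whole bodies; whether the division of reads between forms of nearly equal length is reliable was not tested. Summed, the gene was lower by edgeR at -3.42 on the log2 scale (SE 0.53; adjusted p = 0.00464). The call for g9772.t2 alone (-4.66, SE 1.41, edgeR adjusted p = 0.0399) was lost without any of the 3 whole-body libraries or storage cell replicate 1, 2 or 3, with adjusted p of up to 0.0972, and without storage cell replicate 4 the log2 fold change was -6.42 (adjusted p = 0.0114). The call for g9772.t1 (-2.04, SE 0.37, edgeR adjusted p = 0.00703) held with any library left out.

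The pair of giants of g10692 followed replicates 2 and 4 in sum. Together they had 0.00673, 6.47, 0.197, 1.95 and 0.0308 TPM in storage cells against 21.2, 25.5 and 25.6 TPM in whole bodies, and the sum (log2 fold change -3.10, SE 1.62) was not called (edgeR adjusted p = 0.179).

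The 5 longest giants held the isoforms of g9772, g180.t1 and a further pair. The longest, g7573.t1 (58851 bases), had 0.166, 0.166, 0.0977, 0.170 and 0.00104 TPM in storage cells against 2.99, 2.70 and 2.14 TPM in whole bodies. It was low in storage cell replicate 5, where a single count was found, and the groups did not overlap. Its log2 fold change was -3.75 (SE 0.97, edgeR adjusted p = 0.0227), and the call was lost without whole-body replicate 1, 2 or 3 (adjusted p of 0.0721, 0.0673 and 0.0618). The next in length, g7117.t1 (26319 bases), had 0, 0.107, 0.246, 0 and 0 TPM in storage cells against 7.01, 7.12 and 5.53 TPM in whole bodies. Its call (log2 fold change -5.89, SE 1.75; edgeR adjusted p = 0.0376) was lost without storage cell replicate 2 or 5 (adjusted p of 0.0508 and 0.0505) and without any of the whole-body libraries (adjusted p of up to 0.0968), and without storage cell replicate 3 the log2 fold change was -7.36.

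The giants stood at the far end of a trend that ran through all lengths. Among targets shorter than 9000 bases with a mean of at least 1 TPM (10762 targets), the slope of log2(TPM + 1) on log2 length was -0.287, -0.490, -0.396, -0.550 and -0.405 in storage cell replicates 1 to 5, against -0.0538, -0.0476 and -0.0487 in whole bodies. Among these targets the slope was therefore more negative in every storage cell library, and close to 0 in whole bodies. Presence did change with length. Of all targets, 45.5% under 500 bases, 93.0% from 4500 to below 6000 and 87.3% of giants had 1 TPM in every whole-body library. In every storage cell library, 26.0% under 500 bases, 54.1% from 2000 to below 3000 and 16.4% of giants had 1 TPM. The mean slope was -0.43 ± 0.10 in storage cells (SD, n = 5) and -0.05 ± 0.003 in whole bodies (SD, n = 3), a difference of -0.38 (two-sided exact permutation test over 56 splits, p = 0.0179, the smallest this design can give). The giants took no part in this slope.

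**Figure D4:**
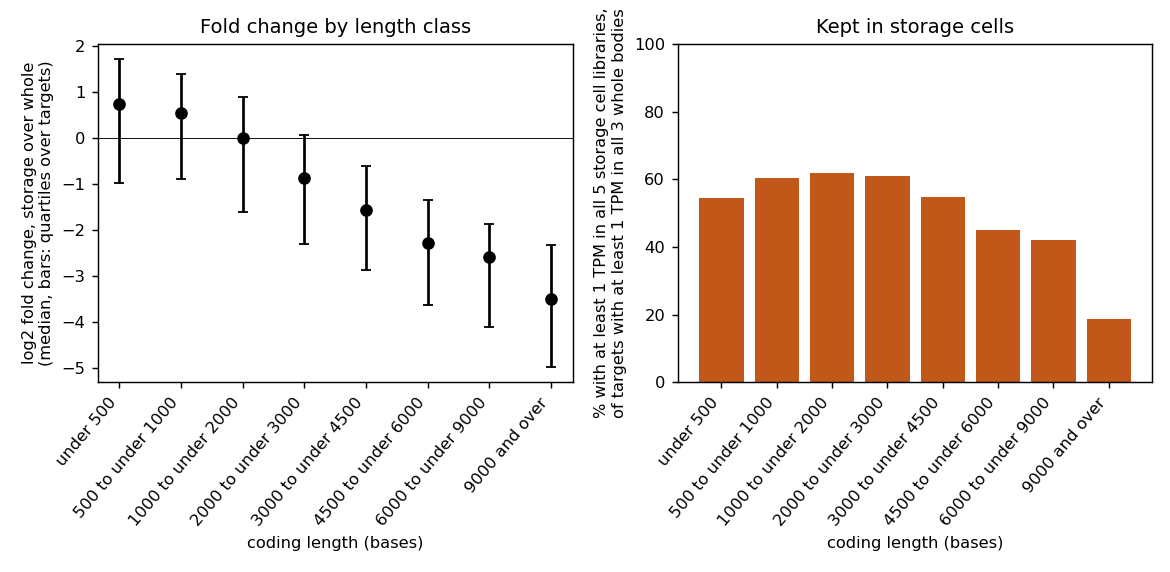
Left, median log2 fold change (storage cells over whole bodies) of the tested targets in each class of coding length, with bars from the lower to the upper quartile over targets; the median is 0.73 under 500 bases and -3.51 in giants. Right, the share of targets with at least 1 TPM in all 3 whole-body libraries that also had at least 1 TPM in all 5 storage cell libraries; it lies between 42.2% and 61.8% in the shorter classes and at 18.8% in giants.

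By length class, the median log2 fold change was 0.73 under 500 bases, 0.53 from 500 to below 1000, -0.01 from 1000 to below 2000, -0.87 from 2000 to below 3000, -1.57 from 3000 to below 4500, -2.28 from 4500 to below 6000 and -2.60 from 6000 to below 9000 bases, ending at -3.51 in the giants. These medians and the shares called cover only targets that passed the count filter, which short targets passed less often. They were 915 of 2499 under 500 bases, 2741 of 4119 from 500 to below 1000 and all 55 giants. The share of tested targets called lower was 14.0% under 500 bases, 10.7% from 500 to below 1000, 12.7% from 1000 to below 2000, 21.1% from 2000 to below 3000, 33.3% from 3000 to below 4500, 52.2% from 4500 to below 6000, 59.3% from 6000 to below 9000 and 65.5% in giants. The share called higher was 22.8% under 500 bases, 22.4% from 500 to below 1000, 13.0% from 1000 to below 2000, 2.74% from 2000 to below 3000, 1.20% from 3000 to below 4500, 0.442% from 4500 to below 6000, 1.85% from 6000 to below 9000 bases and 0% in giants. It was thus already low well below the length of the giants. Of targets at 1 TPM in all whole bodies, the share kept at 1 TPM in all storage cell libraries had another shape. It changed little up to 4500 bases and was lowest in the giants. The summed TPM of the giants in storage cells averaged 242, against 3964 in whole bodies, and targets from 6000 to below 9000 bases averaged 418 TPM in storage cells against 3685 TPM in whole bodies.

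Among the giants themselves, length and fold change were only loosely related (Spearman rho of -0.17 across 55 giants, which share the same libraries and are not independent), and so were whole-body TPM and fold change (rho of -0.01). Across the 10428 tested shorter targets, rho between length and fold change was -0.33.

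**Figure D5:**
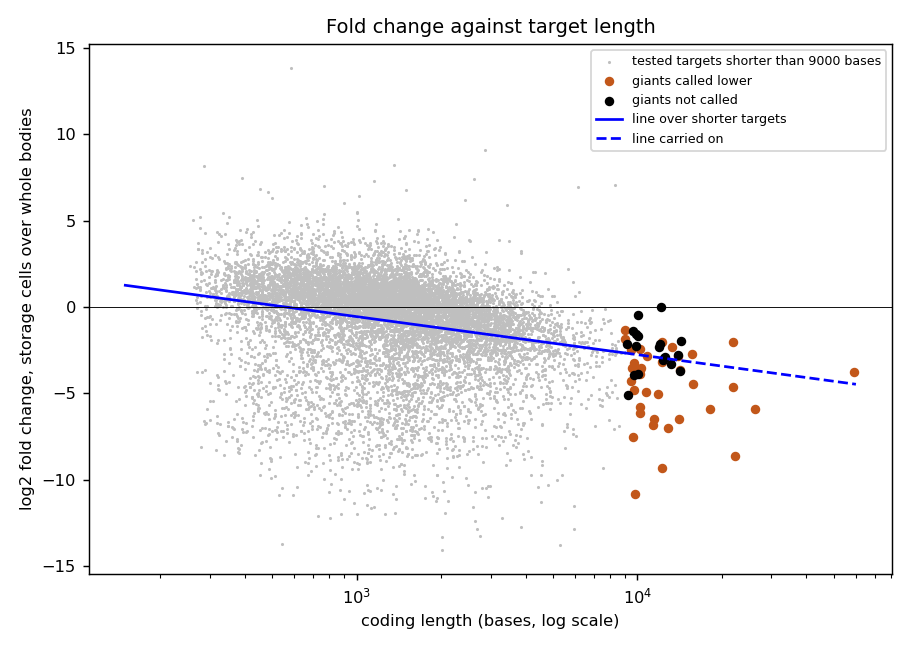
log2 fold change (storage cells over whole bodies) against coding length on a log axis, for tested targets shorter than 9000 bases (grey), the 36 giants called lower (orange) and the 19 giants not called (black). The blue line was fitted to the shorter targets and its dashed part carries it on over the giants, of which 22 lie above it and 33 below.

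A straight line through the fold changes of the shorter targets fell by 0.66 on the log2 scale per doubling of length, and reached -2.66 at 9000 bases. Carried on over the giants, it passed above 33 and below 22 of them, and the median giant lay 0.52 below it (median distance -0.52, quartiles -2.11 and 0.55). The line did not run through the middle of the shorter targets, whose median distance was 0.67 and of which 64.3% lay above it. Of targets from 6000 to below 9000 bases 41.7% lay above it (median distance -0.09), and of giants 40.0%. A natural spline put the median giant at 0.75 above the trend, and a line over targets from 1000 to below 9000 bases put it at 0.19 above. The side of the trend on which the giants lay was thus not settled by these data.

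Each library's own trend on length, a natural spline fitted to shorter targets and carried on over the giants, was then removed before the edgeR test. With it removed, 5 giants were called higher and 6 lower, shares of 9.09% and 10.9%, against 9.01% and 11.8% of all targets tested. The median log2 fold change of the giants was 0.38. Both shares are close to the background, but they hold for a spline, and removal of a straight line was not tested. The 5 giants called higher after removal were g12971.t1 (log2 fold change after removal 3.70, adjusted p = 0.0202), g12872.t1 (2.87, adjusted p = 0.00368), g9772.t1 (2.90, adjusted p = 0.0074), g11136.t1 (1.79, adjusted p = 0.0191) and g8859.t1 (1.57, adjusted p = 0.0214). Of these, 4 were among the 9 giants present in every storage cell library, and g9772.t1 missed 1 TPM in replicate 5. Both lists rest on the same storage cell values, so their overlap adds no evidence for either. Measured from the straight line, g11136.t1 lay 1.32 above and g8859.t1 0.47 above. The 6 called lower after removal were g9916.t2, g2556.t1, g1684.t1, g7096.t1, g10104.t1 and g6626.t1, with log2 fold changes after removal of -9.35 to -2.46 (adjusted p of 0.0164 to 0.0471). The -9.35 belonged to g9916.t2 and rests on how reads were divided with g9916.t1.

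Measured from the straight line, the giants farthest above were g12971.t1 (2.97), g12872.t1 (2.30), g9772.t1 (1.47), followed by g11535.t1. Target g11535.t1 (9678 bases) had 6.77, 1.56, 0.323, 2.21 and 7.68 TPM in storage cells against 18.3, 17.0 and 15.7 TPM in whole bodies, and was not called in the test without the length correction (log2 fold change -1.38, SE 0.88, edgeR adjusted p = 0.272). Voom with sample quality weights (adjusted p = 0.0217) and limma on log2(TPM + 1) (adjusted p = 0.0195) called it lower, whereas DESeq2 did not (adjusted p = 0.165). Those farthest below were g9916.t2 (-8.11, which rests on how reads were divided with g9916.t1), g2556.t1 (-6.36), g180.t1 (-5.11) and g1684.t1 (-4.81).

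The targets nearest to the length threshold varied widely on both sides. Just inside it, g2059.t1 (9006 bases) averaged 1.90 TPM in storage cells and 10.4 TPM in whole bodies, and g11136.t1 (9012 bases) 14.9 TPM in storage cells and 64.5 TPM in whole bodies. Just outside it, g6641.t1 (8748 bases) averaged 0.808 TPM in storage cells and 8.97 TPM in whole bodies, and g12874.t1 (8628 bases) 0.0823 TPM in storage cells and 16.2 TPM in whole bodies.

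Storage cell libraries varied more than whole-body libraries for the giants, as for other targets. The median SD of log2(TPM + 1) between libraries of a group was 0.37 in storage cells and 0.15 in whole bodies for giants, against 0.76 in storage cells and 0.17 in whole bodies for all targets tested. The pseudocount compresses values near 0, where many giants lay in storage cells.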

How the data were processed

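RNA-seq libraries of R. varieornatus, 5 from storage cells and 3 from active whole animals, were grouped by their titles. Per the submitters' processing notes, bcl2fastq 2 and kallisto 0.46.1 were used; the transcript set and options were not stated in labels or headers. The authors deposited 1 table per library with an estimated count, not normalized, and a TPM value, scaled to the same total in each library, for every target. Of the lengths, 99.6% are multiples of 3, so coding length is meant throughout. The deposited effective lengths of giants were 0.973 to 0.992 of the length (median per library).

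Estimated counts were rounded and tested with edgeR 4.0.16 (R 4.3.3; filterByExpr, TMM, glmQLFit, glmQLFTest) over all targets. An SE is the size of the log2 fold change over the root of the F statistic. The scripts were tested on simulated data. Python 3.11.15, scipy 1.17.1, limma 3.58.1 and DESeq2 1.42.0 were also used. Floors of 3 counts cover counting error only, since amplified reads are not independent molecules. The members and lists were chosen with earlier results of these data known. Named giants were the 8 highest in storage cells and the 6 highest in whole bodies by mean TPM, the 5 largest called changes each way, the 5 longest, the 4 farthest above and below the trend, and the 2 next to the threshold; a few others are named where a count of 9 or fewer is listed. Libraries of the other species were not used here. Alternatives were other scalings, filters, tests, pseudocounts, TPM thresholds and trends, a replicate block and each library left out; summing isoforms was added after seeing the data.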

Additional observations from a re-analysis of the deposited data

Results flagged for a closer look

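In 25 screens of the 5 storage cell libraries for a library far from the other 4, 2 were picked out, where chance picks out about 1 in 20. That rate holds for normally distributed values, which TPM values near 0 need not be. Target g9772.t2 had 1.84 TPM in storage cell replicate 4 and at most 0.507 TPM in the others, a gap of 0.726 of the range, and reads were shared with g9772.t1. Target g2556.t1 had 0.106 TPM (21 counts) in storage cell replicate 2 and at most 0.0273 TPM in the others, a gap of 0.743 of the range.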

How the results depend on the processing

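The number of giants called higher stayed at 0 and the number called lower between 35 and 53 under other scalings, filters and tests. The 35 were of 52 genes with isoforms summed, and 36 of 48 giants were lower at 10 CPM or more. Over all targets or genes tested, these settings called 14.3% to 41.2% lower and 5.58% to 21.1% higher. With 1 library left out 22 to 39 giants were lower and 0 higher. Of all targets, those fits called 7.27% to 24.5% lower and 3.48% to 17.2% higher. With the length trend removed the numbers were 5 higher and 6 lower. Same-numbered libraries did not deviate together (correlations of 0.0367, 0.0344 and 0.0125), and the labels do not say that a number marks a shared source. With the replicate block 0 giants were called higher and 0 lower, nor was any other target by edgeR, while 39 giants and 3127 targets had an unadjusted p below 0.05 and 55 giants were negative. Storage cell replicates 4 and 5 have no partner in that fit.

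At thresholds of 0.5 TPM, 5 TPM and 10 counts, 15, 1 and 27 giants were present in all storage cell libraries; with a library left out, 9 to 11. The difference in slope kept its sign in every setting (-0.41 to -0.34 with a library left out), was -0.69 over targets of 1000 to below 9000 bases and -0.23 with a pseudocount of 10 TPM, and was -0.34 with the replicate block (exact sign-flip p = 0.25, the smallest 3 pairs allow). The median distance from the trend was 0.75 with the spline, 0.19 with the line over 1000 to below 9000 bases, -0.63 with a robust line, -0.41 at 10 CPM or more, -0.16 on log2(TPM + 1), -0.64 with the replicate block and -0.60 to -0.22 with a library left out.

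Removing the length trend turned 10 named giants positive: g11136.t1 (1.79), g11535.t1 (1.92), g12872.t1 (2.87), g2059.t1 (1.20), g4155.t1 (1.50), g4890.t1 (1.66), g7573.t1 (3.10), g9364.t1 (1.64), g9772.t1 (2.90) and g9772.t2 (0.27). This follows from how that setting is built. The estimate of g12971.t1, 0.03 as reported, was -0.22 with RLE factors and with DESeq2, -0.047 without a filter, -0.014 at 10 CPM or more, -1.13 on log2(TPM + 1), -1.20 on log2(TPM + 0.1), -0.19 with voom and quality weights, -0.38 with the replicate block, and -0.56 to 0.30 with a library left out (-0.05 without storage cell replicate 3, -0.02 without whole-body replicate 2), never passing the threshold among these. Of 381 estimates of named giants under other settings, 300 kept their direction and side of the threshold, 43 lost a call, 17 gained one and 21 changed sign. Product names were not available, so lists by product were not run.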
